A study of Mus musculus with 12 samples.

Results

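The liver response of tumor-bearing mice to an antibody that binds HER2 and CD3 was examined by bulk RNA sequencing. The 6 liver libraries, out of 12 in the series, were chosen by their titles, 3 from mice given the antibody and 3 from mice given vehicle, and the other 6 are tumor libraries. All mice were wild-type female FVB/NJ animals carrying an orthotopic Fo5 tumor, a piece of mammary tumor from an MMTV-HER2 transgenic founder line that was placed in the mammary fat pad. The HER2 transgene, driven by the promoter of mouse mammary tumor virus, is carried by the transplanted tumor, and every liver comes from a host that is not transgenic but bears such a tumor. The TDB group (T cell-dependent bispecific antibody) received 1 intravenous dose of 5 mg/kg, the vehicle group received the histidine and sucrose buffer alone and livers were taken 24 h later. The design text gives 3 mice per treatment, and total RNA came from dissociated tissue. No tumor-free group and no antibody with a single binding arm was analysed here, so the effect of the dose in a mouse without HER2-bearing cells cannot be told apart from what was measured.

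A T cell-dependent bispecific antibody holds a T cell against a cell that carries its other target, which triggers the T cell receptor complex and the release of cytokines. Interferon-gamma, a main product of activated T cells and NK cells, binds a receptor that activates the Jak1 and Jak2 kinases. Many genes that respond carry short palindromes called GAS elements or a repeated motif called ISRE, which the transcription factor Irf1 can bind. Hepatocytes, the resident macrophages of the liver (Kupffer cells) and the cells that line its sinusoids all carry the receptor. Well-known target genes encode GTPases that act against intracellular pathogens, chemokines that attract T cells, and the machinery that presents peptides on MHC molecules.

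Liver libraries held 18460159 to 25542980 counts and tumor libraries 20796764 to 29396324. Levels are CPM, the counts scaled to a common library total by TMM, a difference is the log2 of the fold change, TDB over vehicle, called the log2 change, with its standard error (SE), and calls are by edgeR's quasi-likelihood F test with Benjamini-Hochberg adjustment at 0.05. Of the counts in a liver library, 7.96% to 14.3% came from Alb, the albumin gene of hepatocytes. TDB library 3 stood apart from the other 5. It lay at 87.0 on a first principal component that held 57.7% of the variance, against -53.6 to 5.92 for the others, and mitochondrial genes took 2.05% of its counts against 0.847% to 1.28%. Across genes, deviation from the group mean followed exonic length with a Spearman coefficient of 0.633 in TDB library 3, -0.588 and -0.466 in TDB libraries 1 and 2, and -0.441 to 0.458 in the vehicle libraries. These coefficients describe 13657 genes of the same libraries and carry no test. Results are given with all libraries, and without TDB library 3 for genes and lists described below whose calls differ.

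After the antibody, the genes called higher in liver included interferon-inducible GTPases, interferon regulatory factors, T cell-attracting chemokines and parts of the peptide-loading machinery, while genes of hepatocyte metabolism rarely passed the test. Of 13657 genes tested, 70 were higher with TDB (0.513%) and 3 were lower (0.022%). The log2 changes of the 70 ran from 1.32 to 9.73 with a median of 2.86, against a median of 0.04 over all genes tested. All 70 were at least 2-fold higher, 53 at least 4-fold and 16 at least 16-fold, and 65 encode proteins. In each of the 73 the 3 TDB libraries lay outside the range of the 3 vehicle libraries, a separation that 9.11% of all tested genes showed upward and 5.46% downward. TDB library 1 had the lowest TDB level for 57 of the 70 higher genes, and TDB library 3 the highest for 40, so the 3 treated libraries differed in level. A difference between mice and a difference between library preparations cannot be told apart here. Without TDB library 3, 151 genes were higher (1.09% of 13888 tested) and 12 lower (0.0864%) and the 70 and the 3 were all among them. The design text names separate mice, so p-values measure the spread between libraries of separate mice. At an unadjusted p under 0.05, a level also given for lists below, 5.84% of all tested genes were higher and 2.25% lower. Where a list below has no call by edgeR, limma-voom without library weights made none in it either. For such a list the count by DESeq2, which called 271 genes higher and 49 lower in all, is given. With library weights, limma-voom called 1792 genes higher and 1285 lower. These included members of such lists, Ccl2, Ciita, Cyp8b1 and Otc among them. The weights were 5.42 for TDB library 2 and 4.20 for vehicle library 1. They were 0.761 and 0.140 for TDB libraries 1 and 3 and 0.402 and 1.02 for vehicle libraries 2 and 3. The weighted fit therefore leaned on TDB library 2 and vehicle library 1.

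**Figure D1:**
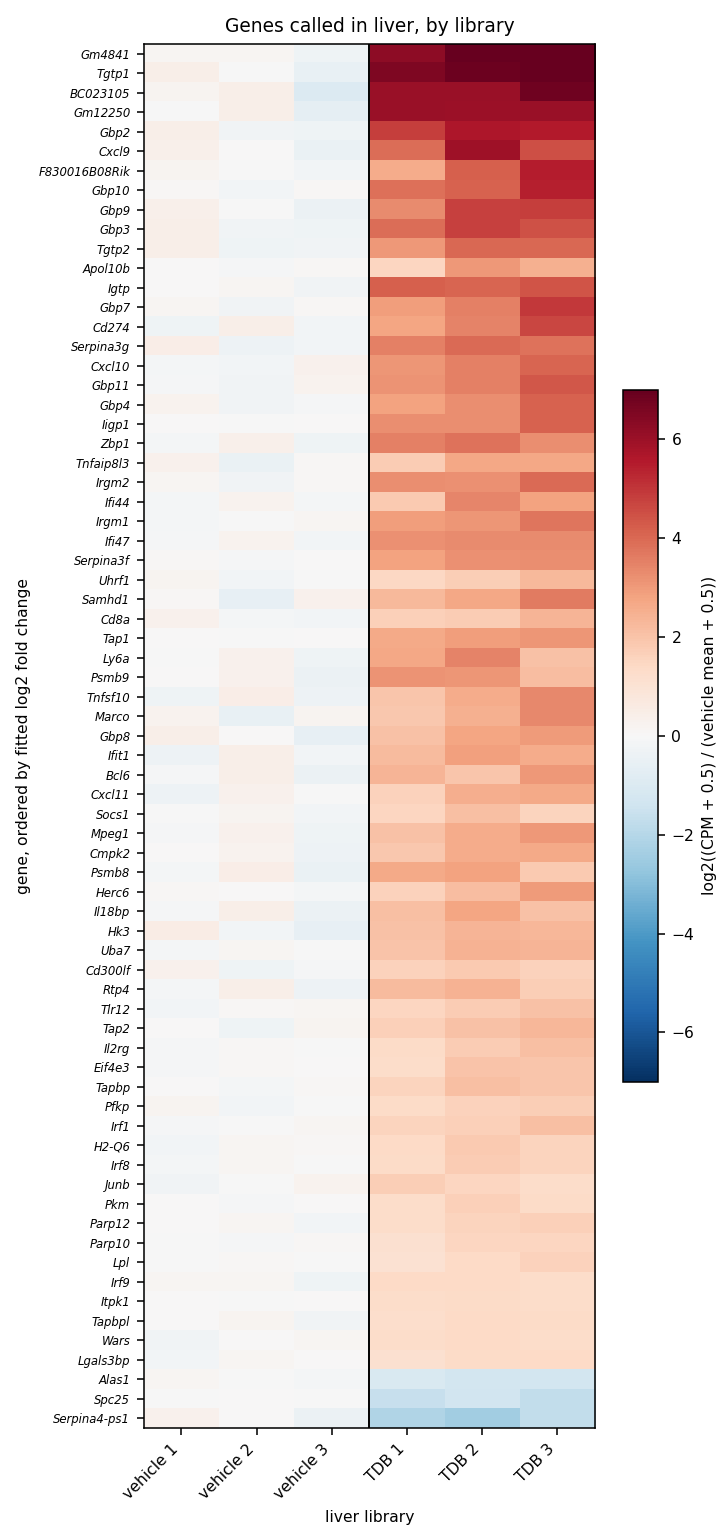
Level of 71 of the 73 called genes in each liver library, as log2 of CPM plus 0.5 over the vehicle mean plus 0.5, genes ordered by fitted log2 change and colors saturating at the ends of the scale. The vehicle columns are near 0 throughout, and TDB library 1 is the palest of the 3 TDB columns for most of the higher genes.

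The largest block of higher genes was that of the immunity-related GTPases, which coat and disrupt the vacuoles of intracellular parasites and bacteria. Of 10 tested members 9 were higher and none lower, with a median log2 change of 3.92. Igtp was at 71.5, 76.5 and 59.1 CPM in the vehicle libraries and at 1257, 1171 and 1472 CPM in the TDB libraries. The groups lay far apart, at a log2 change of 4.24 (SE 0.23, adjusted p = 0.00098). Iigp1 was at 392, 381 and 390 CPM with vehicle and at 3744, 3647 and 6734 CPM with TDB, a 12.1-fold rise (log2 3.60, SE 0.31, adjusted p = 0.0028). Its vehicle level varied little, and the highest TDB value was that of TDB library 3. Per kilobase of exon the mean TDB level was 809 CPM for Iigp1 and 643 CPM for Igtp, and among the other 68 higher genes Gbp11 was next at 388 CPM. Tgtp1 began near the limit of detection, with 1.05, 0.616 and 0.298 CPM against 108, 136 and 170 CPM, and Gm12250 rose from 2.97, 4.20 and 1.79 CPM to 231, 220 and 228 CPM. Gm12250 had the most even TDB values of the family. Ifi47, Irgm1, Irgm2 and Tgtp2 rose by 3.28, 3.29, 3.53 and 4.53 on the log2 scale. Irgm1 and Irgm2, like Igtp, encode regulatory members that keep the effector GTPases inactive on the membranes of the cell itself. F830016B08Rik rose as well, with 12.5, 37.3 and 95.8 CPM in the TDB libraries, a spread that leaves its log2 change at 4.91 (SE 0.75, adjusted p = 0.043). Gm4951, the tested member that did not pass, had a log2 change of 1.07 (SE 0.38, adjusted p = 0.46). Gm4841, annotated as protein coding, and BC023105, annotated as a processed pseudogene, lie near Iigp1 and belong to none of the lists. They were among the genes with the largest rises of all, by 9.73 (SE 0.73) and 6.70 (SE 0.53). Gm4841 had 6 counts over the 3 vehicle libraries, so its fold is imprecise.

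Guanylate-binding proteins, larger GTPases that assemble on pathogen membranes and aid inflammasome activation, rose in 8 of 11 tested members, with a median log2 change of 4.04. Gbp2 was at 12.4, 7.50 and 7.31 CPM with vehicle and at 271, 489 and 447 CPM with TDB, a log2 change of 5.47 (SE 0.37, adjusted p = 0.0013). Gbp11, already at 71.6, 65.5 and 92.1 CPM with vehicle, reached 670, 896 and 1569 CPM. In both genes TDB library 1 was the lowest of the treated livers, yet far above every vehicle library. Gbp3, Gbp4, Gbp7, Gbp8, Gbp9 and Gbp10 rose by 4.56, 3.66, 4.13, 2.74, 4.62 and 4.85. The members that did not pass were Gbp2b, Gbp5 and Gbp6, at 2.55, 4.04 and 3.60 with adjusted p of 0.052, 0.063 and 0.057. Without TDB library 3 all 11 passed. Gbp8, Gbp9 and Gbp4 overlap one another on the same strand, as do Igtp and Irgm2, and Tgtp1 and Tgtp2 are near-identical copies, so the split of reads between them is uncertain.

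Many of these genes sit side by side. Of the 73 called genes 30 lay in 8 clusters of at least 3 called genes with gaps of at most 1 Mb (GRCm38, GENCODE M21). On chromosome 11, Irgm1, Tgtp1, Tgtp2 and Ifi47 lie between 48861968 and 49096974, and Gm12250, Igtp and Irgm2 between 58187739 and 58222782. On chromosome 3, Gbp7, Gbp3 and Gbp2 lie between 142530342 and 142638008, and on chromosome 5 Gbp8, Gbp9, Gbp4, Gbp10 and Gbp11 lie between 105014150 and 105346472. Cxcl9, Cxcl10 and Cxcl11 lie between 92321347 and 92365485 on chromosome 5, and Tapbp, Psmb9, Tap1, Psmb8 and Tap2 between 33915899 and 34216321 on chromosome 17, within the MHC.

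The promoters of the higher genes were searched for the binding motifs named above, since these genes moved together. RefSeq promoters (GRCm38.p6, 250 bases before to 50 after the start) were matched for 49 of the 70 genes and gave 57 windows of 300 bases. The GAS motif TTCNNNGAA, which reads the same on both strands, was in 15 of 57 windows (26.3%), against 7.15% of the 12768 windows of tested genes and 8.30% of all 32851. The ISRE motif, GAAA and a second GAAA with any 2 bases between them (on the other strand TTTC, any 2 bases and TTTC), was in 13 windows (22.8%) against 3.12% and 3.44%, and both motifs together were in 6 (10.5%) against 0.399% and 0.454%. At least 1 of the motifs was in 22 windows of 20 genes (38.6%), against 9.87% of those of tested genes. In 4 promoters, those of the GTPase genes Igtp, Irgm2, Tgtp1 and Tgtp2, a GAS motif was followed on the gene's strand by an ISRE motif whose first base lay 11 bases further on. Of all 32851 windows searched on both strands, 5 held that pair, and the fifth belongs to Gm12185, which overlaps Tgtp1. The lines below show 60 bases of each, with motif matches in capitals and each written on the strand of its gene, to let the shared arrangement be seen, followed by 4 promoters that hold a single kind of motif. The windows are Igtp (chr11:58199491-58199550, plus strand), Irgm2 (chr11:58214882-58214941, plus), Tgtp1 (chr11:48992295-48992354, minus), Tgtp2 (chr11:49064254-49064313, minus), Irf1 (chr11:53769898-53769957, plus), Gbp2 (chr3:142620579-142620638, plus), Socs1 (chr16:10785582-10785641, minus) and Ifit1 (chr19:34640769-34640828, plus).
Igtp: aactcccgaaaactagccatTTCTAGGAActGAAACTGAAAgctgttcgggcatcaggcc
Irgm2: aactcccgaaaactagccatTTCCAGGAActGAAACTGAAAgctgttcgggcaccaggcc
Tgtp1: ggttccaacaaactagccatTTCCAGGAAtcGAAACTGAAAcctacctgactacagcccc
Tgtp2: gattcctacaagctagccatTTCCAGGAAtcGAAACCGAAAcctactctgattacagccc
Irf1: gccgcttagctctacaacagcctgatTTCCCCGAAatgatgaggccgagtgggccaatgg
Gbp2: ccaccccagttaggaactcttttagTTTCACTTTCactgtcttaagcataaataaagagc
Socs1: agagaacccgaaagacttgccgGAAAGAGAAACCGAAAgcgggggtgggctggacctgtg
Ifit1: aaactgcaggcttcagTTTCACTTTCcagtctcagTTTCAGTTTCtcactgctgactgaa
In Socs1 a pair of ISRE matches overlap, and in Ifit1 a pair lie apart. A match describes the letters of the window and is not a measured binding site. The higher genes share families and clusters, so their promoters are not independent of one another.

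Interferon-gamma itself was at the edge of detection. Ifng had 3 counts with vehicle and 12 with TDB in all and was not tested, and Ifngr1 and Ifngr2, the receptor chains, had log2 changes of -0.35 and -0.18 (adjusted p = 0.74 and 0.85). Downstream, 5 of 19 tested genes of the receptor and JAK-STAT list were higher, with a list median of 0.82, or 0.40 without TDB library 3. Irf1, a transcription factor of interferon responses, rose from 44.5, 45.4 and 51.2 CPM to 142, 150 and 203 CPM (log2 change 1.81, SE 0.22), and Irf8 and Irf9 rose by 1.62 and 1.39. Socs1, which blocks the Jak kinases and ends the signal, went from 0.386, 0.560 and 0.298 CPM to 2.09, 3.43 and 2.16 CPM (log2 change 2.62, SE 0.40, adjusted p = 0.043). Jak1, Jak2 and Stat2 were at 0.69, 0.72 and 0.61 and did not pass. Irf7, Socs3, Usp18 and Batf2 had values of 2.17, 1.43, 2.62 and 2.12 with adjusted p of 0.057 to 0.069, and these 4 passed without TDB library 3, when 9 of the list were higher.

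Chemokines that bind Cxcr3, the receptor that draws activated T cells into tissue, rose in all 3 members. Cxcl9 was at 19.5, 15.2 and 10.6 CPM with vehicle and at 234, 954 and 351 CPM with TDB, a log2 change of 5.08 (SE 0.60, adjusted p = 0.018). The treated livers differed widely among themselves, with TDB library 2 the highest. Cxcl10 rose from 3.58 ± 0.774 to 49.9 ± 17.8 CPM (SD, n = 3) and Cxcl11 from 1.69 ± 0.486 to 10.6 ± 3.84 CPM. Cxcr3 itself had a log2 change of 0.13 (adjusted p = 0.93). Among 12 other chemokines tested none passed by edgeR, 3 were higher by DESeq2 and 4 were higher at an unadjusted p under 0.05, a level that 5.84% of all genes met upward. Those 4 were the neutrophil attractant Cxcl1 at 2.39 (adjusted p = 0.098), the monocyte attractants Ccl2 and Ccl7 at 1.51 and 1.74, and Ccl24 at 1.79 (adjusted p = 0.27). Cxcl1 and Ccl24 passed without TDB library 3 (adjusted p = 0.042 and 0.019), as they did with the exonic length trend removed from each library (0.036 for both). Ccl19 and Ccl21a, which guide lymphocytes into lymphoid tissue, had no counts in any liver library.

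**Figure D2:**
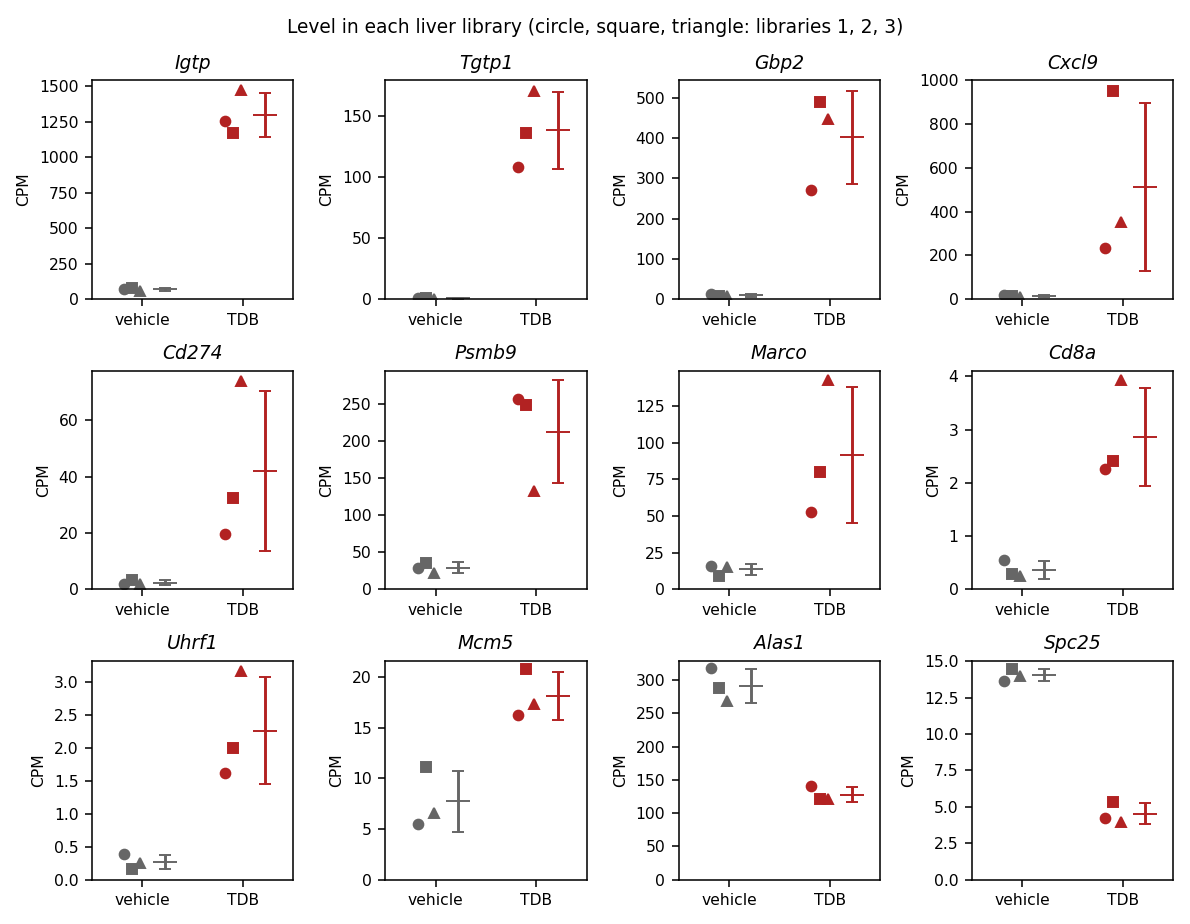
Level in CPM of 12 genes in each of the 6 liver libraries, with circle, square and triangle for libraries 1, 2 and 3 and a bar for the group mean and SD (n = 3), each axis starting at 0. For 10 of the genes every TDB library lies above every vehicle library, and for Alas1 and Spc25 every TDB library lies below; Mcm5 did not pass the test.

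In the peptide-loading pathway of MHC class I, 2 of 6 immunoproteasome and PA28 genes and 5 of 19 class I and peptide-loading genes were higher. Psmb9 and Psmb8, immunoproteasome subunits that replace the constitutive catalytic subunits, rose from 29.1 ± 7.25 to 213 ± 69.5 CPM and from 58.9 ± 19.3 to 333 ± 109 CPM. TDB library 3 was the lowest treated liver for both, at 133 and 210 CPM, against 249 CPM or more and 374 CPM or more in the other treated livers. Psmb10, another such subunit, had a log2 change of 2.00 (adjusted p = 0.079), and the PA28 activator genes Psme1 and Psme2 were at 1.13 and 1.22. Without TDB library 3 all 6 tested genes of this group passed, and all 6 passed when a trend with exonic length was removed from each library. The 3 constitutive subunits they replace, Psmb5, Psmb6 and Psmb7, were at 0.23, -0.12 and -0.07, and none passed under any of these fits. Tap1, a subunit of the peptide transporter, was at 16.8, 16.5 and 16.9 CPM and then 109, 132 and 147 CPM (log2 change 2.95, SE 0.21, adjusted p = 0.0013), and Tap2, its partner, rose by 2.06. Tapbp (tapasin) and Tapbpl, which edit the peptide cargo, rose by 1.89 and 1.33, and the class I gene H2-Q6 by 1.70. The classical class I genes H2-K1 and H2-D1 and the light chain gene B2m were at 0.58, 0.80 and 0.43 and did not pass (adjusted p = 0.59, 0.36 and 0.66). Nlrc5, the transactivator of class I genes, was at 2.71 (adjusted p = 0.15). Of the 19 class I and peptide-loading genes, 6 were higher without TDB library 3, and 7 with the exonic length trend removed. Tap1 and Psmb9 overlap on opposite strands, and reads from the overlap cannot be assigned without strand.

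Class II presentation genes, the business of macrophages and dendritic cells, gave 0 calls of 12 tested by edgeR and 5 by DESeq2, while 10 were higher at an unadjusted p under 0.05 and the list median was 1.15. Ciita, the transactivator of class II, was at 2.70, 0.672 and 1.94 CPM with vehicle and 5.75, 10.1 and 15.8 CPM with TDB (log2 change 2.57, SE 0.56, adjusted p = 0.15). H2-DMb1, H2-DMa and H2-DMb2, parts of the peptide exchange factor, were at 1.72, 1.48 and 1.58, and H2-Aa, H2-Ab1 and Cd74 at 1.12, 1.18 and 1.02. In 9 of the 12 every TDB library lay above every vehicle library, a separation that 9.11% of all tested genes showed. The unadjusted level was met upward by 5.84% of all tested genes. Without TDB library 3, 3 of the list were higher.

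Antiviral genes best known from type I interferon were higher in part. Of 23 tested IFIT, Mx and ISG15-type genes 6 were higher, 20 were higher at an unadjusted p under 0.05, and the median log2 change was 1.81. Of the 23, 11 were higher without TDB library 3. Zbp1, a sensor of Z-form nucleic acid that can start cell death, was at 11.7, 17.1 and 10.4 CPM and then 156, 188 and 128 CPM, a 12.1-fold rise (log2 3.59, SE 0.29, adjusted p = 0.0022). The groups lay far apart, and TDB library 3 was the lowest of the treated livers. Ifit1, an RNA-binding protein, rose by 2.74 (SE 0.33), and Ifi44, Cmpk2, Herc6 and Rtp4 by 3.33, 2.61, 2.42 and 2.20. Isg15 itself was at 2.47 and Mx1 at 1.75, neither past the test (adjusted p = 0.23 and 0.38), while Isg15 passed without TDB library 3 (adjusted p = 0.042). Uba7, the enzyme that activates Isg15 for conjugation, rose from 9.47, 11.8 and 10.6 CPM to 44.6, 58.6 and 58.1 CPM (log2 change 2.34, SE 0.23, adjusted p = 0.0055). Samhd1, which hydrolyses nucleotides and restricts viruses, rose by 3.03 (SE 0.43). Parp12 and Parp10, ADP-ribosyltransferases, rose by 1.53 and 1.42, and all 7 tested genes of that family were higher at an unadjusted p under 0.05, with 4 called without TDB library 3. None of 7 tested OAS and RNase L genes passed by edgeR, against 1 by DESeq2 and 4 at an unadjusted p under 0.05. None of 5 Schlafen genes passed by edgeR, against 2 by DESeq2 and 4 at that level. Among them Oasl2 was at 1.82 (adjusted p = 0.091) and Slfn9 at 2.72 (adjusted p = 0.11). Slfn9 passed without TDB library 3 at 2.04 (adjusted p = 0.041), and both passed with the exonic length trend removed (adjusted p = 0.029 and 0.027). Oas3 and Slfn4 were too low to test, with 6 and 2 counts in all with vehicle and 76 and 35 with TDB.

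**Figure D3:**
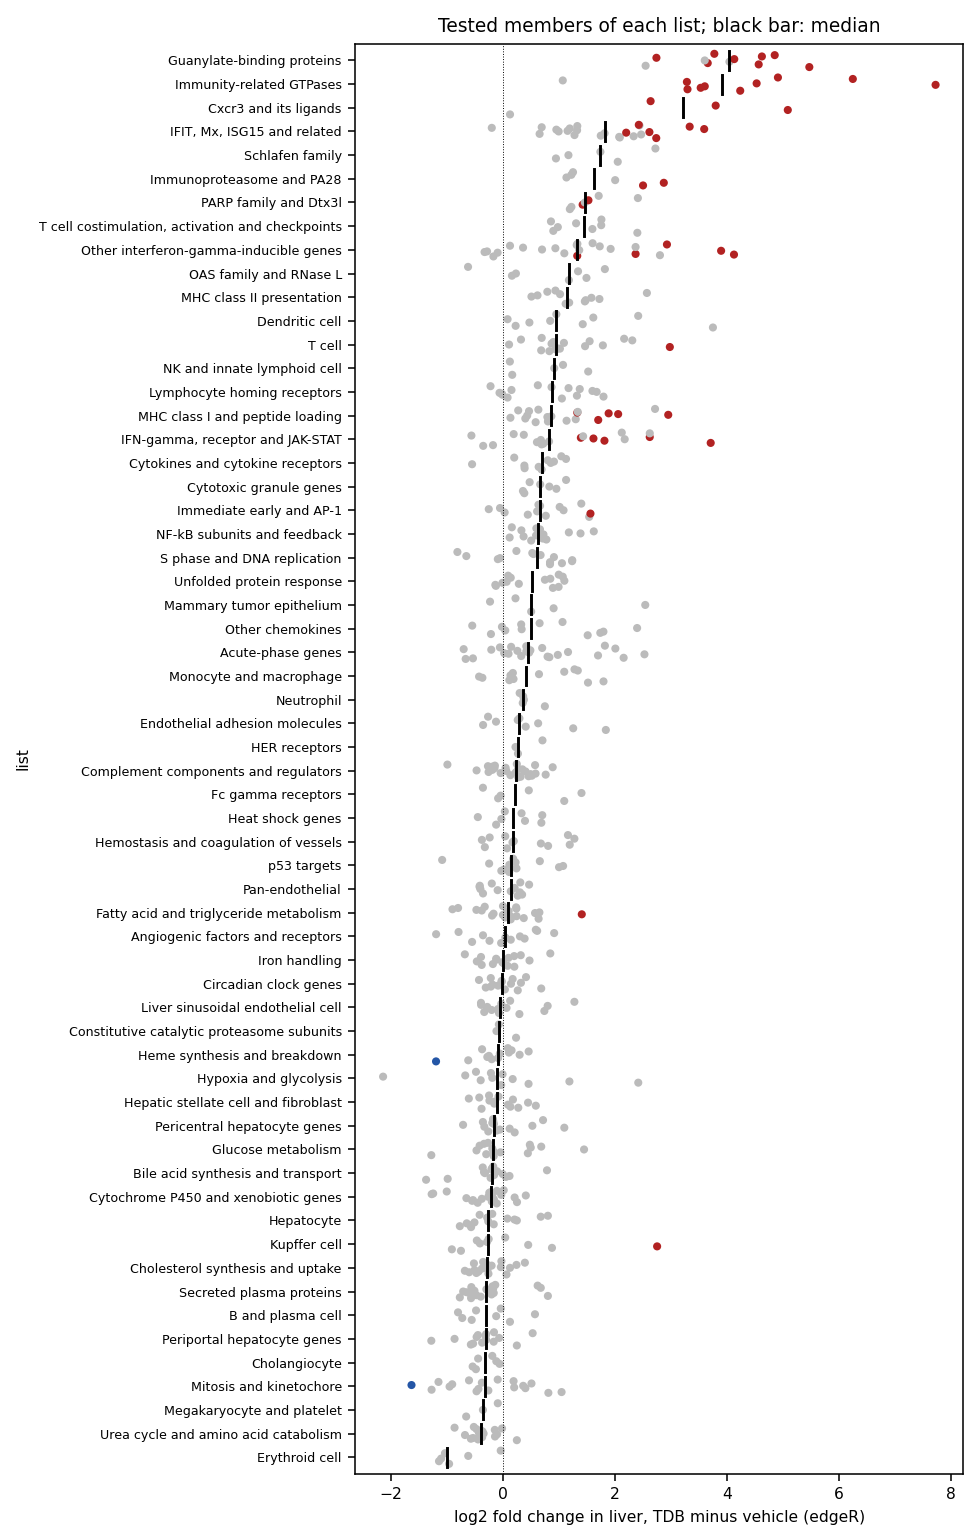
Log2 fold change in liver of each tested member of each gene and marker list, one row per list ordered by its median (black bar), with red for genes called higher, blue for genes called lower and gray for the rest. The GTPase and Cxcr3 ligand lists have medians above 3, whereas the hepatocyte, plasma protein and metabolic lists lie around 0.

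Other genes known to respond to interferon-gamma included secreted and surface inhibitors. Cd274, which encodes PD-L1, the ligand that restrains T cells through PD-1, was at 1.87, 3.30 and 2.04 CPM and then 19.5, 32.3 and 74.0 CPM, a log2 change of 4.12 (SE 0.56, adjusted p = 0.034), or 3.44 without TDB library 3. Il18bp, a soluble inhibitor of interleukin-18, rose from 24.0, 33.3 and 18.6 CPM to 109, 176 and 107 CPM. The protease inhibitor genes Serpina3g and Serpina3f, neighbours on chromosome 12, rose by 3.89 and 3.20, while Serpina4-ps1, a pseudogene in the same cluster between 104080649 and 104241939, fell by 2.05 (SE 0.28, adjusted p = 0.034). Serpina4-ps1 was at 364, 300 and 224 CPM with vehicle and 69.1, 55.2 and 90.7 CPM with TDB, so neighbours in 1 cluster moved in opposite directions. With the exonic length trend removed its adjusted p was 0.058. Tnfsf10, the death ligand TRAIL, rose by 2.84, the tryptophanyl-tRNA synthetase gene Wars by 1.33, the surface protein gene Ly6a by 2.93 and Lgals3bp, a secreted glycoprotein, by 1.32. Apol10b, Tnfaip8l3 and Eif4e3 rose by 4.25, 3.55 and 1.89. Apol10b and Tnfaip8l3 were below 1 CPM in every vehicle library.

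Some genes of macrophages were higher. Marco, a scavenger receptor of Kupffer cells and other macrophages, was at 16.1, 9.29 and 15.4 CPM with vehicle and 52.4, 79.7 and 142 CPM with TDB (log2 change 2.75, SE 0.42, adjusted p = 0.043). Mpeg1, a pore-forming protein of macrophages, rose from 75.4, 101 and 64.2 CPM to 334, 491 and 647 CPM (log2 change 2.62, SE 0.31, adjusted p = 0.018). The inhibitory receptor gene Cd300lf, the endosomal receptor gene Tlr12 and the hexokinase gene Hk3, all genes of myeloid cells, rose by 2.20, 2.10 and 2.36. The Kupffer cell list held 1 higher gene, Marco, among 10 tested, against 2 higher and 1 lower by DESeq2, and had a median of -0.27, or -0.045 without TDB library 3. Clec4f, a lectin restricted to Kupffer cells, was at 261, 369 and 229 CPM with vehicle and 221, 196 and 94.3 CPM with TDB (log2 change -0.75, SE 0.35, adjusted p = 0.67). Vsig4, a complement receptor of these cells, was at 61.8, 65.8 and 49.4 CPM and then 37.3, 30.5 and 26.3 CPM (-0.91, SE 0.23, adjusted p = 0.21). The groups did not overlap for either gene, and neither passed by edgeR, with or without TDB library 3. Vsig4 passed by DESeq2 (adjusted p = 0.026), as the 1 member lower there against 2 higher. Timd4, a receptor for dying cells on the same macrophages, lay the other way, at 15.7 ± 0.859 and 28.9 ± 0.699 CPM (adjusted p = 0.16 by edgeR), also without overlap. Of the 10 markers, 2 had every TDB library above every vehicle library and 2 had every one below. Of all tested genes, 9.11% and 5.46% showed these separations. The summed level of the 10 Kupffer cell markers was 1255 to 1636 CPM with vehicle and 1105 to 1502 CPM with TDB. In bulk RNA, fewer cells of a type and less RNA per cell cannot be told apart, and the same holds for more.

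T cell markers were at low levels in liver. Cd8a, a coreceptor chain of killer T cells, was at 0.551, 0.280 and 0.249 CPM with vehicle and 2.26, 2.41 and 3.92 CPM with TDB, a log2 change of 2.98 (SE 0.44, adjusted p = 0.043), and was the 1 of 17 tested T cell markers that passed by edgeR. A further 11 were higher at an unadjusted p under 0.05, and the median of the list was 0.95. The summed level of the T cell markers was 20.9 to 26.9 CPM with vehicle and 45.1 to 51.5 CPM with TDB, and those sums did not overlap. Gzmk, a granzyme gene, had no counts in any liver library. Cd8b1, the partner chain, was at 0.586 ± 0.0527 and 1.63 ± 0.319 CPM (adjusted p = 0.17), Cd4 at 1.80 ± 0.306 and 3.49 ± 1.88 CPM, and Cd3e at 1.61 ± 0.564 and 2.59 ± 0.570 CPM. Il2rg, the shared chain of several interleukin receptors, rose by 1.96 (SE 0.29). The granule protease gene Gzmb was at 2.15, 1.29 and 2.09 CPM with vehicle and 1.49, 3.81 and 1.76 CPM with TDB, with overlapping groups. None of 7 tested cytotoxic granule genes passed by edgeR, against 1 by DESeq2 and 2 at an unadjusted p under 0.05. Dendritic cell markers summed to 124 to 224 CPM with vehicle and 198 to 442 CPM with TDB. Clec9a, which dendritic cells use to sense dead cells, was at a log2 change of 3.75 (adjusted p = 0.057, or 0.041 without TDB library 3), and 0 of 9 members of that list passed by edgeR, against 2 by DESeq2 and 6 at an unadjusted p under 0.05. The 14 monocyte and macrophage markers summed to 274 to 344 CPM with vehicle and 380 to 415 CPM with TDB. Of the 12 tested, 0 passed by edgeR, 3 by DESeq2 and 6 at an unadjusted p under 0.05. Plac8 was the 1 that passed without TDB library 3, at 1.55 (adjusted p = 0.034). The 10 NK and innate lymphoid cell markers summed to 3.23 to 7.61 CPM with vehicle and 9.21 to 15.8 CPM with TDB. Of the 5 tested, 0 passed by edgeR or DESeq2 and 1 was higher at an unadjusted p under 0.05. Neutrophil sums overlapped, at 13.3 to 25.9 and 21.3 to 34.6 CPM, as did B cell sums, at 21.1 to 24.0 and 18.4 to 22.8 CPM. The part of these cell markers in the changes of interferon-inducible genes was not tested.

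Few genes of hepatocyte metabolism passed the test. Alas1, the rate-limiting enzyme of heme synthesis, fell from 319, 289 and 268 CPM to 141, 121 and 121 CPM (log2 change -1.19, SE 0.19, adjusted p = 0.046), and it was the 1 of 13 tested genes of heme synthesis and breakdown that passed. Hmox1, which degrades heme, was at 0.46 (adjusted p = 0.61). Of 15 pericentral and 15 periportal hepatocyte genes, which mark the ends of the liver lobule, none passed in edgeR, with medians of -0.16 and -0.31 against 0.04 for all genes. At an unadjusted p under 0.05, 2 pericentral genes were higher, and 1 periportal gene was higher and 2 were lower, while DESeq2 called 1 periportal gene lower. Without TDB library 3, edgeR called 1 periportal gene lower, G6pc, whose values are given below. Alb was at 126796 ± 15635 and 85470 ± 9451 CPM (log2 change -0.57, SE 0.20, adjusted p = 0.46), with groups that did not overlap. The 15 hepatocyte markers, Alb included, summed to 187919 to 218194 CPM with vehicle and 137747 to 163120 CPM with TDB. The 19 secreted plasma protein genes, also with Alb, summed to 219887 to 249746 CPM and 158616 to 205323 CPM. Both sums were lower in every treated liver, and 0 genes of either list passed by edgeR or DESeq2, with 2 and 3 lower and 1 higher in each at an unadjusted p under 0.05. G6pc, which releases glucose from the liver, was at 313, 200 and 212 CPM and then 77.3, 72.9 and 149 CPM (-1.28, SE 0.34, adjusted p = 0.25), and without TDB library 3 it passed at -1.68 (adjusted p = 0.019). Pck1, an earlier step of the same pathway, was at -0.17 with overlapping groups. Cyp8b1, which sets the bile acid mix, was at 318 ± 58.4 and 160 ± 14.0 CPM (-0.99, SE 0.21, adjusted p = 0.14, or 0.0055 by DESeq2), and Cyp7a1, the entry enzyme of bile acid synthesis, was at 380 CPM in vehicle library 2 and 50.4 to 96.0 CPM in the other 5. None of 21 tested P450 and xenobiotic genes, 15 bile acid genes, 19 cholesterol genes or 19 urea cycle and amino acid genes had an adjusted p under 0.05 in edgeR. With the unadjusted p under 0.05, a level that 2.25% of all genes met downward, 3, 1, 0 and 2 of them were lower and none was higher, and DESeq2 called 1 bile acid gene lower.

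A few metabolic genes that are low in liver rose. Pkm, the pyruvate kinase of tissues other than liver, was at 4.90, 4.59 and 4.97 CPM and then 12.5, 16.6 and 13.1 CPM (log2 change 1.54, SE 0.24, adjusted p = 0.047). Pfkp, the platelet type of phosphofructokinase, rose from 1.64 ± 0.322 to 5.80 ± 0.858 CPM (1.82, SE 0.29, adjusted p = 0.048). Together with Hk3 these are 3 glycolytic enzymes whose main liver counterparts are other genes, and Pklr, the pyruvate kinase of hepatocytes, was at -0.17. Lpl, lipoprotein lipase, rose from 11.4 ± 0.447 to 30.3 ± 5.36 CPM (1.41, SE 0.22, adjusted p = 0.048), and Itpk1, an inositol phosphate kinase, from 21.3 ± 0.695 to 53.9 ± 1.26 CPM (1.34, SE 0.19, adjusted p = 0.034). Itpk1 had the tightest groups of these. With the exonic length trend removed, Pfkp and Lpl missed the threshold (adjusted p = 0.068 and 0.063).

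Few cell cycle genes passed the test, with 0 of 14 tested S phase genes and 1 of 18 tested mitosis genes called by edgeR. Uhrf1, which is in neither list and which copies DNA methylation at the replication fork, rose from 0.386, 0.168 and 0.249 CPM to 1.62, 2.00 and 3.17 CPM (log2 change 3.05, SE 0.46, adjusted p = 0.043), and Pclaf, a partner of the sliding clamp, was at 0.311 ± 0.203 and 2.84 ± 0.818 CPM (3.19, SE 0.53, adjusted p = 0.059, or 0.034 without TDB library 3). Of the S phase genes 1 passed by DESeq2, 4 were higher at an unadjusted p under 0.05, and the median was 0.61. Those 4 encode subunits of the replicative helicase, Mcm5, Mcm3, Mcm6 and Mcm2, at 1.23, 1.05, 1.24 and 0.84. Mcm5 was at 5.45, 11.1 and 6.56 CPM with vehicle and 16.3, 20.8 and 17.4 CPM with TDB. Spc25, a kinetochore subunit, fell from 13.7, 14.5 and 14.0 CPM to 4.26, 5.35 and 3.97 CPM (-1.63, SE 0.24, adjusted p = 0.042). It was the mitosis gene that passed, and that list had a median of -0.32. The centromeric histone gene Cenpa and the cyclin gene Ccnb2 were at -1.15 and -1.27 (adjusted p = 0.44 and 0.47), and the proliferation marker Mki67 at 0.81 (adjusted p = 0.84). These genes are at low levels, and a few CPM separate the groups.

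Few stress and acute-phase genes passed the test. Junb, a subunit of AP-1, rose from 11.6, 13.4 and 16.1 CPM to 46.9, 40.3 and 34.0 CPM (log2 change 1.56, SE 0.24, adjusted p = 0.043), as 1 of 13 tested immediate early genes. Bcl6, a transcriptional repressor, rose from 4.90, 7.16 and 3.78 CPM to 30.1, 21.6 and 46.9 CPM (2.64, SE 0.38, adjusted p = 0.041), and it is not part of any of the lists. None of 24 acute-phase genes passed by edgeR, 4 were higher by DESeq2, and 7 were higher and 1 lower at an unadjusted p under 0.05. Mt2, a metallothionein gene, was at 1.82 (adjusted p = 0.19) and was the 1 that passed when TDB library 3 was left out, at 2.16 (adjusted p = 0.014), while 3 passed with the exonic length trend removed. Among the 7 were Steap4, a metalloreductase, at 2.01 (adjusted p = 0.091) and Lbp, which binds bacterial lipopolysaccharide, at 1.16 (adjusted p = 0.18). Saa1, the classical acute-phase gene of mouse liver, was at 3495 CPM in vehicle library 2 and 41.1 and 60.6 CPM in vehicle libraries 1 and 3, and at 231, 1820 and 216 CPM with TDB. Without vehicle library 2 its log2 change turned from -0.67 to 3.89. Of 14 genes of the unfolded protein response none passed by edgeR, 1 passed by DESeq2 and 5 were higher at an unadjusted p under 0.05, among them the chaperone genes Hsp90b1 and Hspa5 at 0.99 and 0.89. None of 14 NF-kB genes passed by edgeR, against 2 by DESeq2, 5 at that level and 1 without TDB library 3, and of 15 circadian clock genes 0 passed at any of these.

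None of 9 tested adhesion molecule genes, 13 pan-endothelial markers or 14 markers of liver sinusoidal endothelium passed by edgeR, with 3, 0 and 2 higher at an unadjusted p under 0.05 and 2, 0 and 0 by DESeq2. Vcam1, which binds integrins of lymphocytes, was at 5.62, 6.77 and 5.96 CPM with vehicle and 13.2, 18.1 and 34.3 CPM with TDB (1.84, SE 0.38, adjusted p = 0.13), and Icam1 was at 18.2, 22.6 and 24.2 CPM and then 40.2, 56.8 and 58.0 CPM (1.25, SE 0.24, adjusted p = 0.091). Both passed without TDB library 3 (adjusted p = 0.036 and 0.046) and with the length trend removed (0.019 and 0.027). The summed level of the pan-endothelial markers was 228 to 282 CPM with vehicle and 226 to 286 CPM with TDB, and that of sinusoidal markers 531 to 578 and 524 to 636 CPM. Dll4, a Notch ligand of vessels, and Angpt1, which stabilises them, were at -0.79 and -1.19 (adjusted p = 0.52 and 0.41). Madcam1 and Glycam1, ligands for lymphocyte homing, had no counts in any liver library.

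The liver effect was set against the tumor effect through the difference of the 2 effects in a fit of all 12 libraries that did not pair the liver and tumor of a mouse. Among 16557 genes tested, the liver effect was above the tumor effect for 109 (0.658%) and below it for 303 (1.83%). With liver and tumor libraries of the same treatment and number blocked as pairs, these counts were 42 and 216. Of the 70 genes higher in liver, 62 were also called higher in tumor, and the difference passed for 41, of which 36 were smaller in liver and 5 larger. The effect was smaller in liver for all 11 tested guanylate-binding proteins and all 10 tested immunity-related GTPases. These are folds over vehicle, and vehicle levels differed between the tissues. Unscaled Gbp11 counts per group went from 4325 to 75091 in liver and from 7 to 6136 in tumor. For Gbp8 they went from 325 to 2846 in liver and from 21 to 30570 in tumor. The part of the vehicle level in these differences was not tested. Gbp8 rose by 2.74 in the liver fit and by 10.30 in tumor, a difference of -7.60 (adjusted p = 4.8e-05). The 5 higher genes with a larger effect in liver were Uhrf1, Bcl6, Pfkp, Pkm and Itpk1, with differences of 4.30, 2.19, 2.07, 1.39 and 1.10 (adjusted p = 0.00073, 0.012, 0.0027, 0.0049 and 0.0093). In tumor these 5 had log2 changes of -1.28, 0.40, -0.29, 0.11 and 0.20. Alas1, lower in liver, was at 0.03 in tumor, and its difference of -1.27 passed (adjusted p = 0.0065). The S phase genes had a median of 0.61 in liver and -1.06 in tumor, and the difference passed for 5 of 14, each with the higher value in liver, among them Mcm5 at 2.28 and Mcm3 at 1.86. Pclaf, at 4.38, had one of the largest differences of this kind. Mpeg1 was at 2.62 in liver and 1.60 in tumor and Zbp1 at 3.59 and 4.45, and those differences did not pass (adjusted p = 0.26 and 0.35).

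**Figure D4:**
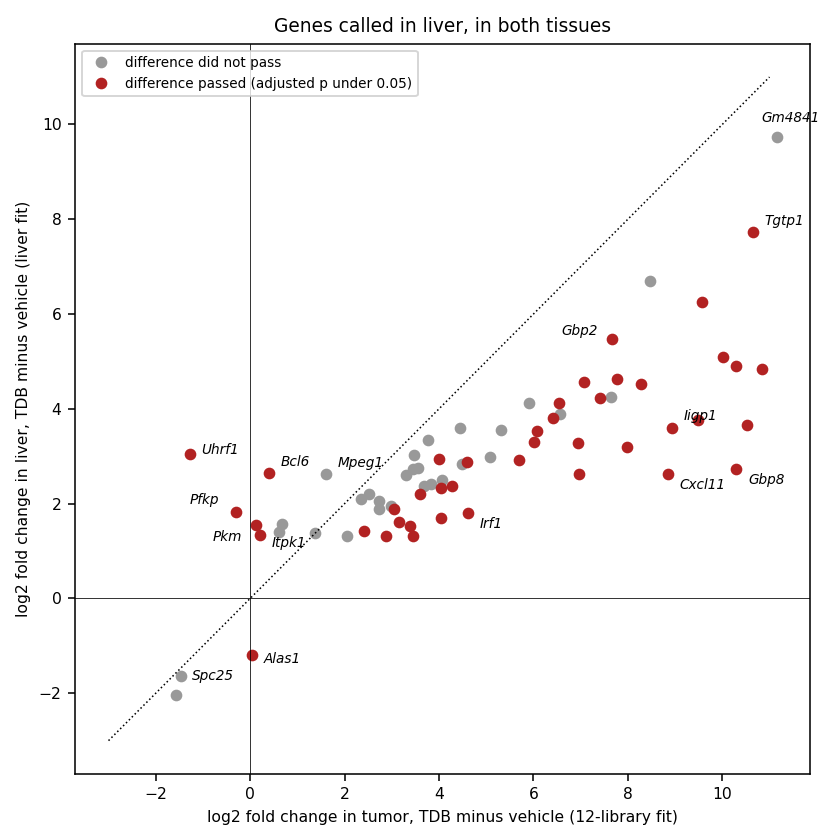
Log2 fold change of TDB over vehicle for 71 of the 73 genes called in liver, with the tumor value (12-library fit) across and the liver value (liver fit) upward, the diagonal marking equal effects and red marking genes whose difference passed. Most points lie below the diagonal at the right, and Uhrf1, Bcl6, Pfkp, Pkm and Itpk1 lie above it near a tumor value of 0 or below.

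For 14 genes the call stood in all 16 alternative analyses, among them Zbp1, Gbp2, Gbp3, Tap1, Serpina3f, Serpina3g, Igtp, Irgm2, Ifi47, Tgtp1, Gm12250, Gm4841 and BC023105. Without vehicle libraries 1, 2 or 3, 18, 14 and 17 genes were higher, and without TDB library 2, 24 were, and all of these were among the 70. Of the 6 fits that leave out 1 library, Cd8a, Marco and Uhrf1 passed in 2, and Junb, Alas1 and Spc25 in 1. After removal of the exonic length trend from each library 157 genes were higher (1.15%) and 12 lower (0.0879%), with 68 of the 70 and 2 of the 3 among them. Both this fit and the one without TDB library 3 called 131 higher genes in common, 63 of which had missed the threshold with all libraries and no correction, Gbp5, Gbp6, Irf7, Isg15, Psmb10, Psme1, Psme2, Casp1 and Vcam1 among them.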

How the data were processed

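Bulk RNA sequencing measured total RNA of dissociated liver and tumor from 6 mice. The read counts per GENCODE gene were deposited by the authors as whole numbers. FPKM values were also deposited by the authors, and 84.5% of 12838 genes matched the genomic span within 1%, against 0.880% for the exonic length, so these FPKM are divided by a length that includes introns and were used only as an alternative. GSNAP, limma and GRCm38 are named per the submitters' processing notes, while the counter and its strand setting were not given in the sources used here. Of 52636 identifiers 52489 had a GENCODE M21 symbol.

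The 6 liver libraries were fitted alone with edgeR 4.0.16 in R 4.3.3 (TMM, filterByExpr at its settings min.count 10 and min.total.count 15, the quasi-likelihood F test with robust estimates, Benjamini-Hochberg threshold 0.05). The SE is the fold change over the square root of F. The common biological coefficient of variation was 32.3%. The difference between the liver and the tumor effect was the interaction in a fit of all 12 libraries by edgeR, from which the tumor values come. Alternatives were median-of-ratios factors, no filter, DESeq2 1.42.0, limma 3.58.1 (voom, with and without library weights, and trend on log2 of FPKM plus 1 or 0.1), all 12 libraries, a replicate block, each library left out, and an offset for exonic length. The block was the replicate number in the liver fit. In the fit of the difference it was treatment and number together, which pairs liver with tumor. In simulated counts of 13504 liver genes, 88% of 100 genes changed by a log2 value of 2 and 100% of 100 changed by 4 were recovered, with 9 false calls. In 16362 genes of the difference, 74% and 90% were, with 15 false calls. These shares describe only the genes changed in the simulation. They were not split by count level, so recovery of genes with few counts is not known from them. Recovery was also not given for a library that stands apart from its group, so the shares are not the power over all tested genes.

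Named genes are every called gene with a symbol, in each list the called members or, where fewer than 3 passed, those with the smallest p up to 3, the 8 genes with the smallest p in each direction of the liver and tumor difference, and 21 genes named outright. Other members appear where a family is compared, and a few genes are not reported here. Members and lists (45 of genes, 17 of cell markers) were chosen with earlier results of these data known. Replicate pairs differed by more than sampling noise, at a chi-square per gene of 27.5 to 245. The spans of 21 of 73 called genes overlap another gene at 1 CPM or more, and without a known strand setting their reads cannot be told apart.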

Additional observations from a re-analysis of the deposited data

Results flagged for a closer look

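For the genes named here the liver effect of TDB differed from the tumor effect by a test of the difference itself (edgeR, adjusted over 16557 genes). Values are the liver minus the tumor log2 fold change, and a negative value means that the liver value was the lower of the pair.

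Among guanylate-binding proteins the difference was -7.60 for Gbp8, -6.91 for Gbp4, -6.84 for Gbp6, -6.38 for Gbp2b, -6.05 for Gbp10, -5.77 for Gbp11, -5.07 for Gbp5, -3.19 for Gbp9, -2.54 for Gbp3, -2.47 for Gbp7 and -2.24 for Gbp2. Among immunity-related GTPases it was -7.69 for Gm4951, -5.44 for F830016B08Rik, -5.38 for Iigp1, -3.78 for Tgtp2, -3.69 for Ifi47, -3.37 for Gm12250, -3.22 for Igtp, -2.97 for Tgtp1, -2.77 for Irgm1 and -2.60 for Irgm2. Signal and transcription genes gave -5.88 for Batf2, -4.37 for Socs1, -2.84 for Irf1, -2.97 for Ciita, -2.65 for Stat2 and -1.57 for Irf8. Chemokines gave -6.25 for Cxcl11, -5.25 for Ccl24, -4.98 for Cxcl9 and -2.66 for Cxcl10.

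Antigen presentation genes gave -4.41 for Nlrc5, -3.20 for B2m, -3.06 for H2-Ab1, -2.95 for Cd74, -2.91 for H2-DMa, -2.66 for H2-Aa, -2.39 for H2-Q6, -2.02 for H2-D1, -1.91 for H2-K1, -1.90 for Psmb10, -1.75 for Psmb9, -1.58 for Tapbpl, -1.21 for Tapbp and -1.08 for Tap1. Antiviral genes gave -3.69 for Oasl2, -2.51 for Slfn1, -2.12 for Slfn2, -1.91 for Parp12, -1.75 for Uba7, -1.72 for Parp9, -1.44 for Rtp4 and -1.02 for Parp10. Other interferon-inducible genes gave -4.82 for Serpina3f, -2.98 for Plac8, -2.79 for Ly6a and -2.18 for Lgals3bp.

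Lymphocyte and myeloid genes gave -7.60 for Cd3e, -7.02 for Prf1, -6.03 for Tbx21, -6.02 for Gzmb, -5.47 for Jchain, -4.95 for Klrk1, -4.04 for Timd4, -2.64 for Fcgr4, -2.37 for Cd79b, -1.96 for Hk3, -1.86 for Srgn and -1.72 for C3ar1. Fitted values of genes with very few counts depend on the prior count. In the tumor vehicle libraries together Cd3e and Gbp6 had 0 counts, and Tbx21, Prf1, Jchain, Ccl24, Timd4, Klrk1 and Cd79b had 1, 2, 4, 6, 7, 8 and 10. Among the genes of the paragraphs above, Gbp11, F830016B08Rik, Cxcl11, Tgtp1 and Gbp10 had 7, 8, 9, 9 and 12. Further differences were -6.38 for Dnase1l3, -5.81 for Slc2a6, -2.51 for Icam1 and -1.27 for Alas1.

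The liver effect was above the tumor effect by 4.38 for Pclaf, 4.30 for Uhrf1, 2.28 for Mcm5, 2.24 for Mcm6, 1.92 for Mcm2 and 1.86 for Mcm3 among replication genes. It was above by 2.07 for Pfkp, 1.75 for Me2, 1.58 for Oxct1, 1.39 for Pkm, 1.10 for Itpk1 and 2.00 for Slc16a7 among genes of metabolism, and by 3.61 for Rbm20, 2.27 for Exoc3l2, 2.19 for Bcl6, 1.64 for Jam2 and 1.53 for Lbp. Such a value can reflect a fall in tumor as well as a rise in liver. Unscaled tumor counts went from 1564 with vehicle to 408 with TDB for Slc16a7, 135 to 36 for Rbm20 and 247 to 59 for Exoc3l2. Among the genes of this paragraph, only Bcl6, Pkm and Itpk1 had higher tumor counts with TDB.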

How the results depend on the processing

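In liver, 70 genes were called higher and 3 lower. The counts were 133 and 12 with no filter on low counts, 271 and 49 by DESeq2, 1792 and 1285 by limma-voom with library weights, and 282 and 41 with all 12 libraries in 1 fit. On FPKM they were 35 and 2 with 1 added and 64 and 5 with 0.1 added. Leaving out single libraries gave 14 to 151 higher and 0 to 12 lower, with the highest counts without TDB library 3. With 0 lower genes, without vehicle libraries 1, 2 or 3 or TDB library 2, edgeR still had 163, 242, 255 and 175 lower at an unadjusted p under 0.05. The offset for exonic length, chosen after seeing the data, gave 157 and 12. All 70 were among the higher genes by DESeq2, with no filter, with weights, with 12 libraries and without TDB library 3. For the difference from tumor, 109 genes were above and 303 below. DESeq2 gave 296 and 560, library weights 2010 and 1797, and single libraries left out 45 to 177 and 196 to 525. The cause of these shifts was not tested.

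With the replicate number as a block, the liver counts were 291 and 59. The difference counts were 42 and 216 when liver and tumor libraries of the same treatment and number were blocked as pairs. The numbers are not shown to pair the samples: same-numbered vehicle and TDB livers had correlations of deviations of -0.0915, 0.464 and 0.607, and TDB library 1 correlated best with vehicle library 2. Same-numbered liver and tumor libraries lay between -0.0389 and 0.0965.

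Over single genes and lists, 3817 values kept direction and side of the threshold or stayed within 1.5 times the count, 291 list counts moved by more, 314 newly passed, 297 no longer passed and 32 changed sign, in 16 genes that had not passed. Saa1 turned to 1.13 by voom, 4.48 with library weights, 1.20 with the replicate block, 1.03 and 1.05 on FPKM plus 1 and plus 0.1, and to 3.89 without vehicle library 2. Hamp turned to -0.14 with weights and to -0.031 on FPKM plus either constant, Erbb2 to -0.13, Cyp7a1 to 0.32, Psmb6 to 0.19, Psmb7 to 0.11 and Ifngr2 to 0.0065 with weights, and Psmb5 to -0.043 on FPKM plus 0.1. With single libraries left out, the log2 change ran from -2.44 to 3.89 for Saa1, -0.40 to 0.50 for Hamp, -0.83 to 0.21 for Stab2, -0.23 to 0.49 for Erbb2, -0.59 to 0.037 for Pck1, -0.015 to 0.29 for Exoc3l2, -0.22 to 0.10 for Slc16a7, -0.21 to 0.60 for Gzmb, -0.15 to 0.65 for Psmb5, -0.38 to 0.23 for Psmb6, -0.21 to 0.15 for Psmb7, -0.57 to 1.67 for Mki67, -0.30 to 0.015 for Pklr and -0.14 to 0.29 for Cxcr3. Genes with a few counts, such as Ifng, could not be tested at this depth.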

Other observations

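Receptors that guide leukocytes into tissue lay mostly above their vehicle levels in liver. Of 15 tested homing receptor genes 0 passed by edgeR, 5 were higher by DESeq2 and 8 were higher at an unadjusted p under 0.05, with a median log2 change of 0.87 against 0.04 for all genes. Ccr2, a chemokine receptor of monocytes, was at 1.79, and the integrin genes Itga4 and Itgb2 at 1.67 and 1.37. Of 8 tested genes of T cell activation and checkpoints 0 passed by edgeR, 3 by DESeq2 and 5 at an unadjusted p under 0.05, among them Havcr2 (TIM-3) at 1.75 and Cd44 at 1.31. The summed T cell, NK cell and monocyte markers of the groups did not overlap, and their part in these values was not tested.

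Erythroid markers varied between the vehicle libraries. Their summed level was 2514 CPM in vehicle library 2, 533 and 819 CPM in vehicle libraries 1 and 3 and 292 to 940 CPM with TDB. None of 6 passed by edgeR or DESeq2, and 0 were past an unadjusted p of 0.05. Vehicle library 2 also held the highest Saa1 and Cyp7a1 levels of the 6 livers.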
